A study of Mus musculus with 30 samples.

Results

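The T cell receptor gene segments are the genomic pieces from which T cells build the receptor that recognises antigen. All genes whose symbol begins with Trav, Traj, Trac, Trbv, Trbd, Trbj, Trbc, Trdv, Trdc, Trgv, Trgj or Tcrg were taken from the count table, and 217 of the 264 listed had at least 1 count in any of the 30 tumors. The other 47 had no count. The whole table listed 39676 genes, of which 30596 had a count. The 217 members lay in 4 loci. The alpha locus (Tra) held 154, the beta locus (Trb) 43, the delta locus (Trd) 6 and the gamma locus (Tcrg) 14. Most were counted sparsely, since 72 members reached a mean of 1 count per tumor and 11 a mean of 10.

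RNA was sequenced from whole subcutaneous tumors of B16-F10 melanoma, a mouse skin tumor line, taken on day 8 from female C57BL/6 mice, with 10 tumors labelled B16-GFP, 10 labelled B16-IFNA4 and 10 labelled B16-IFNA9. The tumor cells of the latter types carried a retroviral vector for interferon alpha 4 or interferon alpha 9 together with GFP, and B16-GFP cells carried the vector with GFP alone. All 3 lines were also transduced with herpes simplex virus glycoprotein B, a fluorescent protein, luciferase and puromycin resistance, so the control tumors expressed these foreign proteins as well. Each line was a sorted, transduced culture, so that the tumor cells themselves were the source of the added interferon, and the hosts were wild-type mice. The labels name the 10 tumors of a type as biological replicates and give no age or other detail of the mice. Between 14598517 and 18669856 reads were assigned to genes in each B16-GFP tumor, 15944776 to 19788383 in each B16-IFNA4 tumor and 15312860 to 18528910 in each B16-IFNA9 tumor.

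A developing T cell cuts and rejoins its DNA so that a variable (V), in some chains a diversity (D), and a joining (J) segment stand next to each other, and splicing attaches a constant (C) gene. Alpha beta T cells pair an alpha with a beta chain and include the CD4+ and CD8+ T cells that see peptides on MHC proteins. Gamma delta T cells pair a gamma with a delta chain and are common in skin. Transcripts of constant genes can also come from a locus that was never rearranged, and NK cells, which are close relatives of T cells, are known to carry unrearranged transcripts of Trbc1 and Trdc. A V segment joined to its neighbours in a spliced transcript is a closer sign of a rearranged receptor. Counts per segment, as used here, do not show such a join. Counts of D and J segments alone cannot tell rearranged from unrearranged transcripts.

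The segments differ greatly in length, which sets how they can be counted. Joining segments of the beta chain spanned 46 to 54 bases, and the diversity segments 12 and 14, against reads of 50 bases, so 11 members were shorter than 1 read. A read assigned to such a member reached beyond it. The joining segments with the most counts in each beta cluster and both diversity segments are printed below to show how short they are from the GENCODE M21 transcripts (GRCm38, plus strand, 5′ to 3′), and they lie on chromosome 6 between the V segments and their constant genes. Capitals mark the motif TTTGG or TTCGG, followed by NNNN and GG, where N is any base, which encodes the Phe-Gly-X-Gly turn of a joining segment.
Trbj1-1: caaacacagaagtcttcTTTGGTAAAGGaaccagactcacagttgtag
Trbj1-2: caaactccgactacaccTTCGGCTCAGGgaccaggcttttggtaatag
Trbj1-4: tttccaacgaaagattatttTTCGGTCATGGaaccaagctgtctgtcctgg
Trbj2-1: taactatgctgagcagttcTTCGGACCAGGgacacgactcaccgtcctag
Trbj2-7: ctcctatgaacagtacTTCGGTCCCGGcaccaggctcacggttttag
Trbd1: gggacagggggc
Trbd2: gggactgggggggc
Read on the coding strand, the motif stood in 5 of 7 Trbj1 segments, 6 of 7 Trbj2 segments, 30 of 38 Traj segments and 0 of 3 Trgj segments with a count. It stood in the last 50 bases of 0 of 152 V segments, or 0% of them. Trbj1-1 lies at chr6:41533864-41533911, Trbj1-2 at chr6:41534001-41534048, Trbj1-4 at chr6:41534811-41534861 and Trbd1 at chr6:41533201-41533212.

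Several members share sequence with another, which limits how far their counts can be told apart. Trbc1 (chr6:41538218-41539881) and Trbc2 (chr6:41546730-41548352), the alternative constant genes of the beta chain, have coding sequences of 521 bases each that differ at 23 positions and are 95.6% identical. The stretch from base 361 to base 521, printed with the differing bases in capitals, holds 22 of these 23.
Trbc1: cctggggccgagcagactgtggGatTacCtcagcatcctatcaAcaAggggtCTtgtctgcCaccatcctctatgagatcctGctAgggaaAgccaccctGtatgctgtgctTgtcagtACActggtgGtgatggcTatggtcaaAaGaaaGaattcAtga
Trbc2: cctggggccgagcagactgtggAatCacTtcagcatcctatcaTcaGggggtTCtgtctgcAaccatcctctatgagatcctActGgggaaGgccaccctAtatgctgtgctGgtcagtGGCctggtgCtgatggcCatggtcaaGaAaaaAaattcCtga
Of all stretches of 50 bases in Trbc1 transcripts, 40.5% also stood in another gene, and in Trbc2 44.0%. The alpha locus of C57BL/6 mice holds duplicated blocks, and Trav6d-7 (chr14:53007612-53008098) and Trav6n-7 (chr14:53318798-53319284) are identical over all 358 bases of their transcripts. Their last 150 bases are set here beside those of the related Trav6-7-dv9 (chr14:53709902-53710419), with capitals at the 3 bases that are not the same in all of them.
Trav6d-7: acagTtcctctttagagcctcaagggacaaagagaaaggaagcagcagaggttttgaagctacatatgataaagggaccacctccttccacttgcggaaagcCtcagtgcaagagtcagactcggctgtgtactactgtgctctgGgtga
Trav6n-7: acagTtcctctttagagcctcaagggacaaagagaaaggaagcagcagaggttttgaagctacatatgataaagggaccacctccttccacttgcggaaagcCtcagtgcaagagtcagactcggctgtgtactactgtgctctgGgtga
Trav6-7-dv9: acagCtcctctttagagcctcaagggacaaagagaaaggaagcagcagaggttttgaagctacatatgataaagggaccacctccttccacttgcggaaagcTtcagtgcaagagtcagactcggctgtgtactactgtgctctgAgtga
Trav6d-7 and Trav6n-7 had the same count in every tumor, 72 in all. In the whole class, 45 Trav segments fell into 22 such sets with identical counts, and 18 of these sets held at least 10 counts. Sums over Trav below take each set once unless stated, which leaves 92 rows of the 115 Trav members.

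The constant genes carried most of the signal and were higher in both kinds of interferon tumor than in controls. The levels below are in CPM, the counts scaled to a common library size with TMM factors. Trac (chr14:54220521-54224206), the constant gene of the alpha chain, had 0.624 CPM in the lowest B16-GFP tumor, a median of 1.43 and 2.37 in the highest. In B16-IFNA4 tumors the lowest, median and highest levels were 5.99, 10.7 and 16.7 CPM, and in B16-IFNA9 tumors they were 2.46, 9.95 and 16.04 CPM. Each interferon tumor thus lay above every control tumor. In an edgeR quasi-likelihood fit of all 30 tumors, Trac rose by a log2 fold change of 2.87 ± 0.29 (SE, adjusted p = 1.37e-09) in B16-IFNA4 and of 2.66 ± 0.29 (adjusted p = 1.28e-08) in B16-IFNA9 against B16-GFP tumors. Both comparisons use the same 10 control tumors. These are bulk samples, in which more T cells and more receptor RNA per cell cannot be told apart.

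Trbc1 had 1.43, 3.95 and 6.16 CPM as the lowest, median and highest level in B16-GFP tumors, 16.8, 23.2 and 31.5 in B16-IFNA4 tumors and 7.44, 14.2 and 23.1 in B16-IFNA9 tumors. No interferon tumor of either type fell within the range of the controls. The fitted log2 fold changes were 2.52 ± 0.21 (adjusted p = 1.14e-11) and 1.89 ± 0.20 (adjusted p = 7.37e-09) by edgeR. Trbc2 had 2.05, 6.97 and 11.4 CPM in B16-GFP tumors, 20.4, 28.1 and 35.1 in B16-IFNA4 tumors and 7.56, 20.9 and 26.2 in B16-IFNA9 tumors. All B16-IFNA4 tumors exceeded the controls, whereas the lowest B16-IFNA9 tumor reached into the control range. Trbc2 rose by 1.97 ± 0.21 on the log2 scale (edgeR adjusted p = 2.35e-09) in B16-IFNA4 and by 1.45 ± 0.21 (adjusted p = 1.07e-06) in B16-IFNA9 tumors.

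Trdc (chr14:54142851-54148868), the constant gene of the delta chain, had 1.52, 5.58 and 9.66 CPM in B16-GFP, 18.1, 20.6 and 33.9 in B16-IFNA4 and 9.13, 16.8 and 22.1 in B16-IFNA9 tumors. B16-IFNA4 tumors did not overlap the controls, and 9 of 10 B16-IFNA9 tumors lay above them. The log2 fold changes were 2.07 ± 0.23 (edgeR adjusted p = 8.83e-09) and 1.57 ± 0.23 (adjusted p = 2.05e-06).

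The gamma locus has 4 constant genes, each joined to its own group of V segments. Tcrg-C1 (chr13:19214103-19217024) had the highest counts, with 1.82, 5.15 and 7.36 CPM in B16-GFP, 8.50, 13.4 and 21.2 in B16-IFNA4 and 5.53, 12.2 and 14.4 in B16-IFNA9 tumors. In B16-IFNA9 tumors 8 of 10 lay above every control tumor. It rose by 1.55 ± 0.23 (edgeR adjusted p = 8.65e-07) and 1.26 ± 0.23 (adjusted p = 3.01e-05) on the log2 scale. Tcrg-C2 (chr13:19304649-19307551), whose tumors did not overlap the controls in either type, rose by 2.15 ± 0.24 (edgeR adjusted p = 7.11e-09) and 1.80 ± 0.24 (adjusted p = 3.64e-07). Tcrg-C4 (chr13:19344558-19352756), which shared none of its stretches of 50 bases with another gene, rose by 2.43 ± 0.31 (edgeR adjusted p = 7.68e-08) and 1.71 ± 0.31 (adjusted p = 3.24e-05). Tcrg-C3 (chr13:19260884-19263528) rose by 1.66 ± 0.31 (edgeR adjusted p = 3.42e-05) and 1.13 ± 0.31 (adjusted p = 0.00304). Of the stretches of 50 bases, 34.2% in Tcrg-C1, 25.4% in Tcrg-C2 and 39.5% in Tcrg-C3 also stood in another gene.

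**Figure D1:**
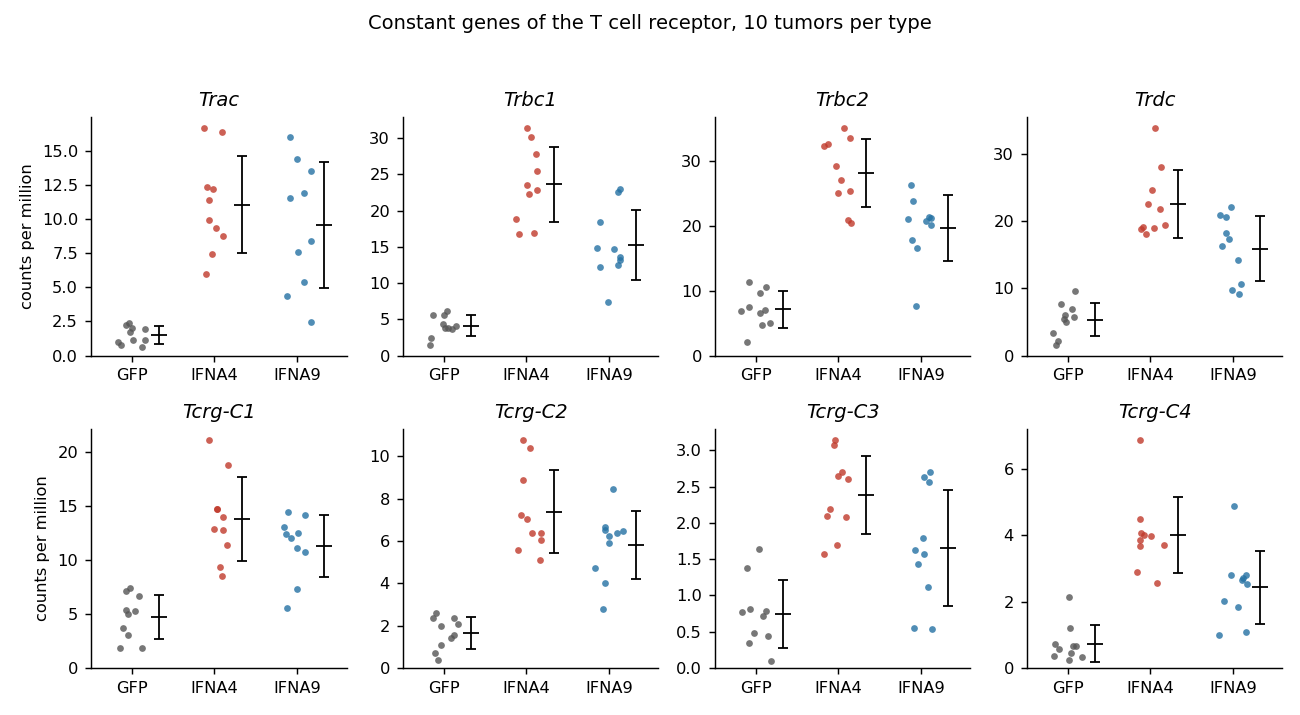
CPM of the 8 constant genes (vertical axis of each panel, starting at 0) in each tumor (points) of the 3 tumor types, with the mean and SD as a bar to the right of the points. All B16-IFNA4 tumors lie above all B16-GFP tumors for Trac (5.99 to 16.7 against 0.624 to 2.37), Trbc1, Trbc2, Trdc, Tcrg-C1, Tcrg-C2 and Tcrg-C4, and B16-IFNA9 tumors lie lower than B16-IFNA4 tumors for Trbc1 with overlap.

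Per kilobase of exon, the order of the constant genes was the same at its top in the 3 types. Trbc2 had the highest mean level per kilobase, with 10.3 CPM in B16-GFP, 40.7 in B16-IFNA4 and 28.4 in B16-IFNA9 tumors, and Trbc1 followed with 5.46, 31.5 and 20.4. Next came Tcrg-C1 with 5.11, 15.0 and 12.3 CPM per kilobase, ahead of Trac with 1.60, 11.8 and 10.2. Below Tcrg-C1 the order was not the same in all types, since Tcrg-C2 stood above Trac in B16-GFP and below it in B16-IFNA4 tumors. Trdc, whose annotated exons span 3865 bases, had 1.39, 5.83 and 4.12 CPM per kilobase. In every tumor Trac stood below both beta constant genes per kilobase. The ratio of Trbc2 to Trac per kilobase had a median of 6.04 in B16-GFP (range 3.70 to 17.5), 3.64 in B16-IFNA4 (2.68 to 4.71) and 3.10 in B16-IFNA9 tumors (1.78 to 5.17).

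None of the order within a type was tested. Of the 11 members with a mean of at least 10 counts, 11 were called higher in B16-IFNA4 than in B16-GFP tumors at an adjusted p under 0.05, where 31.3% of all 15926 genes tested were called higher. Their median log2 fold change was 1.97, beside 0.01 over all genes tested. In B16-IFNA9 tumors 11 of 11 were called higher, where 26.9% of all genes were, with a median of 1.65 beside 0.00. These 11 are the members with the most counts and not the whole set, and Trgv2 (44 counts over the 10 control tumors) and Tcrg-V5 (84 counts) averaged under 10 in controls, so they passed the filter through the interferon tumors. With the filter lowered to a mean of 1 count, 64 of 72 members were called higher in B16-IFNA4 tumors (26.2% of 21586 genes) and 59 of 72 in B16-IFNA9 tumors (22.3% of genes). A member can pass that filter through the interferon tumors alone, so these 2 counts are only a description. Adjusted p values from that fit given below are a description too for genes that averaged under 1 count in controls. With no filter the counts were 118 of 217 (19.8% of all genes with a count) and 97 of 217 (16.2%). None of the 11 was called lower, where 34.1% and 28.9% of all genes were.

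Complete separation of the tumors was rarer and differed between the types. In B16-IFNA4 tumors 15 of 217 members had every tumor above every control tumor, where 4.57% of all genes with a count did. These were Trac, Trbc1, Trbc2, Trdc, Tcrg-C1, Tcrg-C2, Tcrg-C4, Trdv2-2, Trdv4, Trbv3, Trbv13-3, Trbj1-2, Trbj1-4, Trbj1-5 and Trbj1-6. For Trbv13-3 the separation rests on scaling, since the lowest B16-IFNA4 tumor and the highest control tumor each had 1 count. In B16-IFNA9 tumors 5 of 217 members did so (Trac, Trbc1, Tcrg-C2, Trbj1-2 and Trbj1-4), a share near the 2.38% of all genes. For Trac it rests on scaling as well, with 40 counts in the lowest B16-IFNA9 and 42 in the highest control tumor. Of the 11 members tested with the most counts, 8 separated completely in B16-IFNA4 tumors, beside 8.5% of all genes tested, and 3 in B16-IFNA9 tumors, beside 4.44%.

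**Figure D2:**
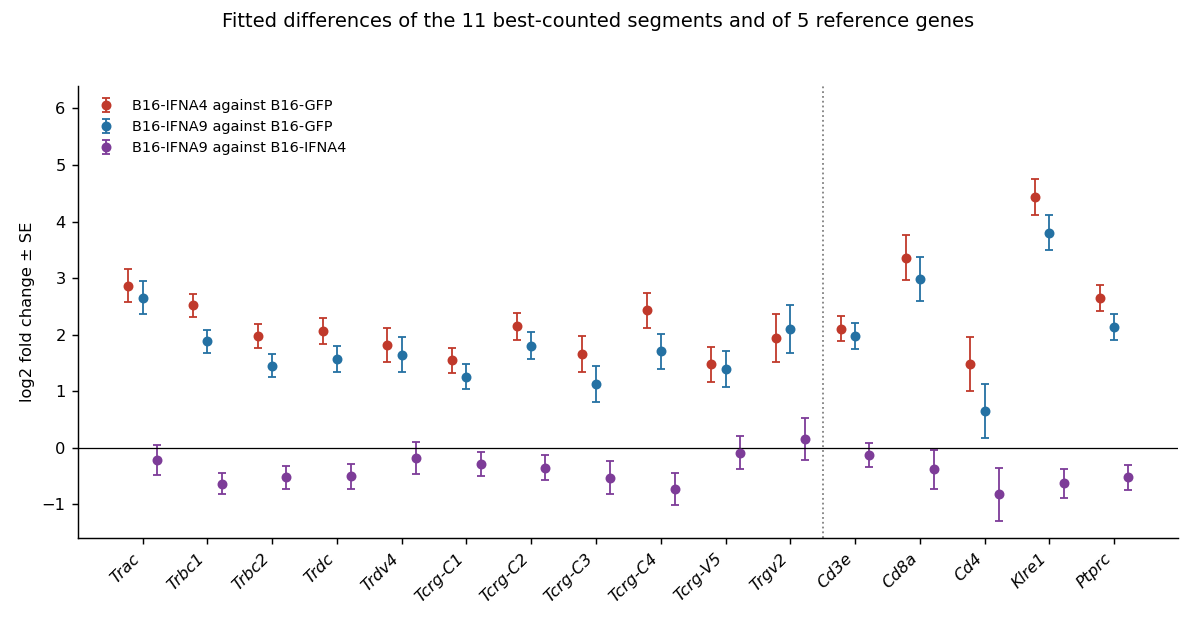
Fitted log2 fold changes (vertical axis, points) with their SE (bars) for the 11 members with a mean of at least 10 counts and, right of the dotted line, 5 other genes, in the 3 comparisons named in the legend. Against B16-GFP all 11 members lie above 0, from 1.48 for Tcrg-V5 to 2.87 for Trac in B16-IFNA4 tumors, and between B16-IFNA9 and B16-IFNA4 they lie from -0.72 for Tcrg-C4 to 0.16 for Trgv2.

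The joining segments of the first beta cluster had the highest ratio to controls among the classes summed with all tumors included. The 7 Trbj1 segments together had 25 counts in the 10 B16-GFP tumors, 766 in B16-IFNA4 and 492 in B16-IFNA9 tumors. Their summed level was 0.148 ± 0.185 CPM (SD, n = 10) in controls, 4.37 ± 1.58 in B16-IFNA4 and 2.88 ± 1.26 in B16-IFNA9 tumors, 29.6 and 19.5 times the control mean. No interferon tumor overlapped the controls, in which the highest tumor reached 0.625 CPM. B16-GFP tumor 6 held 10 of the 25 control counts, and without it the ratios were 46.0 and 30.3. In the fit with no filter, 7 of 7 Trbj1 segments were called higher in each interferon type, beside 19.8% and 16.2% of all genes.

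Trbj1-4 had no count in any B16-GFP tumor, from 5 to 29 counts in each B16-IFNA4 tumor and from 3 to 20 in each B16-IFNA9 tumor. Against the limit that a total of 0 allows, taken as 3 counts over the 10 control tumors, its level was at least 47.8-fold higher in B16-IFNA4 and at least 27.1-fold higher in B16-IFNA9 tumors. These limits, like the other intervals on counts given here, cover counting error only. Trbj1-2 had 4 counts in all control tumors, 7 to 25 in each B16-IFNA4 tumor and 7 to 18 in each B16-IFNA9 tumor. Its log2 fold changes were 4.81 ± 0.45 (edgeR adjusted p = 2.17e-10) and 4.23 ± 0.46 (adjusted p = 1.21e-08). Trbj1-1, the beta joining segment with the highest total, had 7, 168 and 110 counts in the 3 types in that order. It rose by 4.26 ± 0.58 (edgeR adjusted p = 2.51e-07) and 3.70 ± 0.59 (adjusted p = 6.93e-06), although 5 of the 7 control counts came from 1 tumor. Trbj1-2 and Trbj1-1 averaged under 1 count in controls and reached a mean of 1 count through the interferon tumors. Their fitted values are therefore only a description.

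The second beta cluster had lower ratios in sum. The 7 Trbj2 segments had 26, 139 and 130 counts in B16-GFP, B16-IFNA4 and B16-IFNA9 tumors, 5.25 and 5.01 times the control mean in CPM, and tumors of both interferon types overlapped the controls. With no filter, 6 of the 7 were called higher in B16-IFNA4 and 3 in B16-IFNA9 tumors, beside 19.8% and 16.2% of all genes. Trbj2-7 had 13, 47 and 30 counts, with log2 fold changes of 1.69 ± 0.55 (edgeR adjusted p = 0.00996) and 1.09 ± 0.57 (adjusted p = 0.119). Trbj2-1 had 1, 21 and 32 counts and Trbj2-3 had 1, 20 and 23, and with no filter both were called higher in B16-IFNA4 (edgeR adjusted p = 0.000864 and 0.00255) and in B16-IFNA9 tumors (adjusted p = 0.00015 and 0.00173). Trbj2-2 had 8, 15 and 15 counts and passed the test in neither comparison (adjusted p = 0.479 and 0.486 by edgeR). Trbj1 segments made up a median of 84.2% of all Trbj counts in B16-IFNA4 tumors (range 80.0 to 89.9) and 78.7% in B16-IFNA9 tumors (67.4 to 100). In the 8 control tumors with any Trbj count the median was 47.2%, with a range from 0 to 100 that rests on few counts.

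The diversity segments, of which 1 lies upstream of each joining cluster, differed from each other. Trbd1 had 0 counts in the 10 control tumors, 53 in B16-IFNA4 and 59 in B16-IFNA9 tumors, at least 16.7-fold and at least 18.8-fold higher than the limit of 3 counts. It had a count in 9 of 10 B16-IFNA4 and 9 of 10 B16-IFNA9 tumors. Trbd2 had 7, 6 and 7 counts, and its log2 fold changes without a filter were -0.21 ± 0.89 (edgeR adjusted p = 0.902) and -0.05 ± 0.90 (adjusted p = 1.0). Of its 7 control counts, 5 came from B16-GFP tumor 3, so the contrast with Trbd1 leans on that tumor. Without it the ratio of the summed Trbd segments to controls moved from 7.929 to 27.45 in B16-IFNA4 and from 9.205 to 31.87 in B16-IFNA9 tumors.

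The beta variable segments had more counts in interferon tumors than in controls. The 25 Trbv members had 97 counts in the 10 B16-GFP tumors, 1042 in B16-IFNA4 and 606 in B16-IFNA9 tumors, or 0.551 ± 0.566, 5.97 ± 1.65 and 3.48 ± 1.86 CPM (SD, n = 10 each). The means were 10.9 and 6.32 times that of the controls. All B16-IFNA4 tumors and 8 of 10 B16-IFNA9 tumors lay above every control tumor, and 2 control tumors, numbers 3 and 7, had no Trbv count. With no filter, 18 of the 25 were called higher in B16-IFNA4 and 14 in B16-IFNA9 tumors, beside 19.8% and 16.2% of all genes.

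Trbv13-2, Trbv13-1 and Trbv13-3 encode the V beta 8 chains, which are frequent in C57BL/6 mice. Trbv13-2 (chr6:41121396-41121832) had the most counts of all Trbv segments in both interferon types and over all tumors, with 17 in B16-GFP, where Trbv13-1 had 19, 151 in B16-IFNA4 and 79 in B16-IFNA9 tumors. The last 90 bases of its transcript are printed here, with capitals at the last TGT triplet, which encodes the cysteine where the junction with D and J begins.
Trbv13-2: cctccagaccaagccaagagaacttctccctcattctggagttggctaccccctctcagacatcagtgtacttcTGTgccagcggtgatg
Trbv13-2 rose by 3.00 ± 0.49 (edgeR adjusted p = 5.32e-06) and 2.08 ± 0.50 (adjusted p = 0.00115) on the log2 scale. Trbv13-3 had 1, 77 and 34 counts, 72.6 times the control level in CPM in B16-IFNA4 tumors with a counting interval from 12.7 to 2906. Trbv13-1 had 19, 78 and 28 counts and rose in B16-IFNA4 tumors (1.91 ± 0.64, edgeR adjusted p = 0.0119), with 0.48 ± 0.68 in B16-IFNA9 tumors (adjusted p = 0.595).

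Trbv3 followed Trbv13-2 in total counts, with 2 in controls, 89 in B16-IFNA4 and 63 in B16-IFNA9 tumors. It had from 6 to 15 counts in each B16-IFNA4 tumor and at most 1 in a control tumor. The ratio to controls was 42.0 (counting interval 11.3 to 352) in B16-IFNA4 and 30.1 (8.01 to 254) in B16-IFNA9 tumors. Trbv15 shows how a single control tumor can hold a segment, since its 16 control counts all came from tumor 5. It had 57 and 39 counts in the interferon tumors, and the log2 fold changes of 1.68 ± 0.77 (edgeR adjusted p = 0.0658) and 1.19 ± 0.79 (adjusted p = 0.226) did not pass the test. Trbv20 had 4, 35 and 53 counts and rose by 2.73 ± 0.73 (edgeR adjusted p = 0.00204) and 3.33 ± 0.70 (adjusted p = 0.00027). Trbv20 reached a mean of 1 count through the interferon tumors, so these fitted values are only a description. In B16-IFNA9 tumors Trbv20 ranged from 0 to 18 counts per tumor, against 1 to 5 in B16-IFNA4 tumors.

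**Figure D3:**
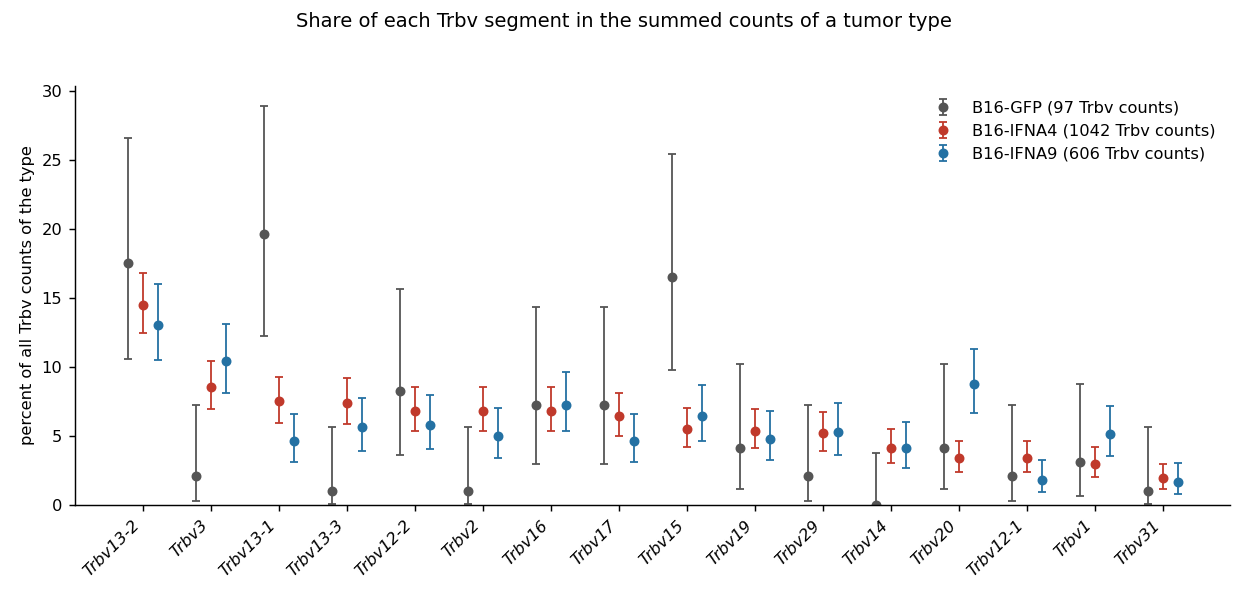
Percent of the summed Trbv counts of each tumor type (vertical axis) taken by each of the 16 Trbv segments with a mean of at least 1 count (horizontal axis), with exact 95% binomial intervals for counting error as bars. Trbv13-2 had 14.5% of 1042 counts in B16-IFNA4 and 13.0% of 606 in B16-IFNA9 tumors, and the intervals of B16-GFP tumors are wide since they rest on 97 counts.

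Shares were taken within the Trbv counts. Pooled over the tumors of a type, Trbv13-2 took 14.5% of the Trbv counts in B16-IFNA4 (exact 95% binomial interval 12.4 to 16.8) and 13.0% in B16-IFNA9 tumors (10.46 to 15.98). In B16-GFP tumors it took 17.5% (10.55 to 26.57) and Trbv13-1 took 19.6% (12.2 to 28.9) of 97 counts. It was the leading Trbv segment, ties included, in 9 of 10 B16-IFNA4 tumors and 3 of 10 B16-IFNA9 tumors. In B16-IFNA9 tumors Trbv20 led in 3, Trbv3 in 2, and Trbv1, Trbv12-2, Trbv13-1, Trbv13-3, Trbv16, Trbv17 and Trbv19 in 1 each, ties again included. The tumors of that type with the fewest Trbv counts had 16 and 24, so a lead there rests on 7 and 5 counts. Trbv2 led in 1 B16-IFNA4 tumor with 19 of 89 counts, and Trbv19 tied with Trbv13-2 in another. Of the 8 control tumors with a Trbv count, Trbv13-2 led in 4, Trbv13-1 and Trbv17 in 2 each, and Trbv5, Trbv12-2, Trbv15 and Trbv16 in 1 each.

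The Trbv13 segments together took 28.6% ± 6.92 (SD, n = 10) of the Trbv counts in B16-IFNA4 and 24.3% ± 8.68 (n = 10) in B16-IFNA9 tumors. The difference of -4.26 percentage points did not exceed the spread between tumors (two-sided permutation p = 0.243, adjusted over 5 share comparisons 0.505). Only 2 control tumors had the 10 Trbv counts required for a share, with 29.4% in tumor 2 and 38.9% in tumor 5 (mean 34.2%). The differences from them were -5.56 points for B16-IFNA4 (exact permutation p = 0.303) and -9.83 points for B16-IFNA9 tumors (exact permutation p = 0.121), where the smallest p that this design allows is 0.0303. They depended on the control tumors used, with -10.3 to -0.825 and -14.6 to -5.09 points when single tumors were left out. With all tumors with at least 1 Trbv count they were -10.8 and -15.1 points, and a replicate block with 2 pairs turned the first to 0.712. Trbv4, which encodes the V beta 10 chain known to be common among CD8+ T cells specific for glycoprotein B of herpes simplex virus, had 2 counts in all, both in 1 B16-IFNA9 tumor. Its share there was 4.65% of 43 Trbv counts, and its share in the other tumors was 0, so the comparisons that could be computed gave an exact or permutation p of 1.0. In the annotation 75.1% of the exon bases of Trbv4 lie under exons of the same-strand gene 5830405F06Rik, which had 9 counts in all, each in a B16-IFNA9 tumor and at most 2 in any tumor, and a read there can be left uncounted or assigned to the other gene, depending on the counting mode.

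The number of different variable segments was counted in each tumor. From 15 to 19 Trbv segments had a count in each B16-IFNA4 tumor, 6 to 18 in each B16-IFNA9 tumor and 0 to 7 in each control tumor. At an equal number of 16 counts, the expected number of different Trbv segments was 8.76 to 10.5 (median 9.79) in B16-IFNA4 and 6.00 to 10.3 (median 9.16) in B16-IFNA9 tumors, with overlap. Of the control tumors, only tumor 2 (17 Trbv counts) and tumor 5 (36 counts) had that many, and the expected number was 4.94 and 4.59, below each interferon tumor. In tumor 5 a single segment, Trbv15, held 16 of the 36 counts. Control tumors 6 and 8, with too few counts for this measure, had 7 different segments in 9 counts each. These 2 values therefore do not describe the controls as a group.

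**Figure D4:**
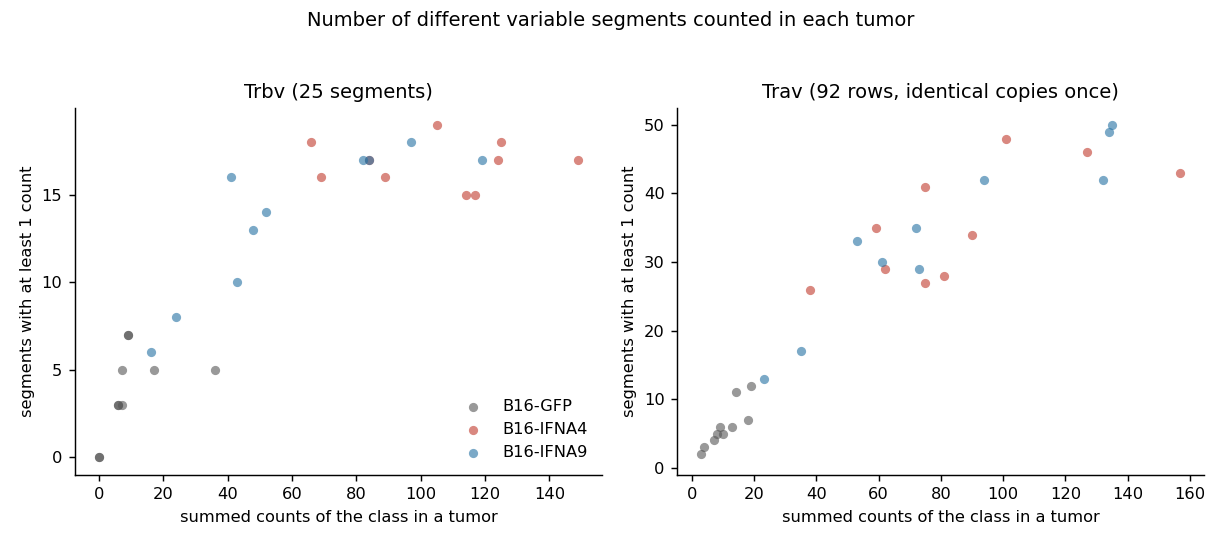
Number of different Trbv segments (left) and Trav segments with identical copies counted once (right) that had at least 1 count in a tumor, against the summed counts of that class in the tumor, 1 point per tumor. Controls sit at 0 to 7 Trbv and 2 to 12 Trav segments, and the interferon tumors reach up to 19 Trbv and 50 Trav segments.

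The alpha chain has the most V segments and showed the widest range of rarely counted members. With identical copies taken once, Trav segments had 105 counts in B16-GFP, 865 in B16-IFNA4 and 812 in B16-IFNA9 tumors. The summed level was 0.622 ± 0.289 CPM (SD, n = 10) in controls, 4.93 ± 1.90 in B16-IFNA4 and 4.71 ± 2.46 in B16-IFNA9 tumors, which is 7.93 and 7.57 times the control mean. No interferon tumor overlapped the controls. With no filter and identical copies taken once, 45 of 92 Trav segments were called higher in B16-IFNA4 and 39 of 92 in B16-IFNA9 tumors, beside 19.8% and 16.2% of all genes.

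Trav4-4-dv10, which can join to delta as well as alpha segments, had the highest total of the Trav class and was counted in 8 of 10 control tumors. It had 19, 28 and 37 counts in B16-GFP, B16-IFNA4 and B16-IFNA9 tumors, with log2 fold changes of 0.46 ± 0.53 (edgeR adjusted p = 0.477) and 0.85 ± 0.52 (adjusted p = 0.183). Trav6d-7 and its identical copy Trav6n-7 had 3, 31 and 38 counts each, all 3 control counts in 1 tumor and 17 of the 31 B16-IFNA4 counts in another. They rose by 2.82 ± 0.86 (edgeR adjusted p = 0.00634) and 3.18 ± 0.85 (adjusted p = 0.00268), given only as a description, since they reached a mean of 1 count through the interferon tumors. Trav16n, with the same total as Trav6d-7, had 4, 40 and 28 counts and rose by 2.91 ± 0.77 (edgeR adjusted p = 0.00194) and 2.44 ± 0.79 (adjusted p = 0.0122). The same limit applies to Trav16n, which was also added after its values were seen.

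The alpha joining segments are many and short, and each was counted rarely. The 38 Traj members had 14, 98 and 82 counts in the 3 types, and 11 of the 14 control counts came from tumor 2. None reached a mean of 1 count. Without a filter, 6 of 38 were called higher in B16-IFNA4 and 3 of 38 in B16-IFNA9 tumors, beside 19.8% and 16.2% of all genes. Traj23, with the highest total, had 0, 5 and 13 counts, Traj42 had 0, 5 and 12, and Traj2 had 0, 13 and 3.

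Segments that mark T cells with a fixed alpha chain were at or near the limit of detection. Trav11 and its copy Trav11d, used with Traj18 by invariant NKT cells, had 1, 6 and 10 counts, and Traj18 had a single count, in a B16-IFNA9 tumor. Traj33, used by MAIT cells, had 1 count in B16-GFP and 1 in B16-IFNA4 tumors. Trav1, the V segment of those cells, had no count in any tumor. At this depth no difference between tumor types was detectable for Traj18, Traj33 or Trav1.

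Gamma delta receptors were represented by a small number of variable segments with higher counts than most alpha or beta ones. Trdv4 (chr14:54074905-54075515) and Tcrg-V5 (chr13:19192278-19192725) together form the receptor of the gamma delta T cells that reside in mouse epidermis. The ends of both transcripts are printed with the last TGT triplet in capitals, as for Trbv13-2.
Trdv4: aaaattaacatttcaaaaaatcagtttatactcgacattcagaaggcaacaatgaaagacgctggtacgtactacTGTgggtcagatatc
Tcrg-V5: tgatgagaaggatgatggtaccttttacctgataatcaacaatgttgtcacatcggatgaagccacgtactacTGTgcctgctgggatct
Trdv4 had 0.268, 0.881 and 2.34 CPM as the lowest, median and highest level in B16-GFP, 2.44, 3.57 and 5.26 in B16-IFNA4 and 1.45, 3.57 and 5.97 in B16-IFNA9 tumors. Only the B16-IFNA4 tumors all lay above the controls. It rose by 1.82 ± 0.30 (edgeR adjusted p = 6.08e-06) and 1.65 ± 0.30 (adjusted p = 4.12e-05). Tcrg-V5 had 0, 0.421 and 1.26 CPM in B16-GFP, 0.698, 1.45 and 2.56 in B16-IFNA4 and 1.02, 1.21 and 2.41 in B16-IFNA9 tumors, with overlap in both comparisons. It rose by 1.48 ± 0.31 (edgeR adjusted p = 0.000149) and 1.39 ± 0.31 (adjusted p = 0.000412).

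The share of Trdv4 in all Trdv counts was highest in the controls. It was 96.6% of 176 counts in B16-GFP, 86.6% of 732 in B16-IFNA4 and 89.6% of 615 in B16-IFNA9 tumors. Per tumor the medians were 100%, 86.1% and 90.4%, and the ranges of 90.5 to 100, 79.5 to 95.2 and 84.0 to 100 overlapped. Trdv2-2 had no count in controls, 1 to 7 in each B16-IFNA4 tumor and 0 to 7 in each B16-IFNA9 tumor, at least 13.2-fold and at least 9.89-fold higher. Trdv5 had 6, 35 and 23 counts and rose in both types (2.24 ± 0.67, edgeR adjusted p = 0.00568, and 1.69 ± 0.70, adjusted p = 0.0483). These values are only a description, since Trdv5 reached a mean of 1 count through the interferon tumors. Trdv1 had 0, 9 and 3 counts.

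Among the other gamma V segments, Trgv2, which joins to Tcrg-C2, had 0, 0.303 and 0.695 CPM in B16-GFP, 0.640, 1.00 and 1.74 in B16-IFNA4 and 0.369, 0.957 and 2.23 in B16-IFNA9 tumors. Tumors of both interferon types overlapped the controls. It rose by 1.94 ± 0.42 (edgeR adjusted p = 0.000186) and 2.10 ± 0.42 (adjusted p = 0.000105). Tcrg-V4 had 18, 113 and 67 counts and rose by 2.50 ± 0.47 (edgeR adjusted p = 3.66e-05) and 1.77 ± 0.48 (adjusted p = 0.00306). Tcrg-V1 had 18, 81 and 77 counts and rose by 2.02 ± 0.53 (edgeR adjusted p = 0.00174) and 1.98 ± 0.53 (adjusted p = 0.00287). Tcrg-V6, the V segment of gamma delta T cells that make IL-17, had 10, 66 and 53 counts and rose by 2.51 ± 0.64 (edgeR adjusted p = 0.00145) and 2.22 ± 0.65 (adjusted p = 0.00595). Il17a itself had no count in any tumor. Tcrg-V7, the V segment of intestinal gamma delta T cells, had 0, 4 and 3 counts.

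The gamma joining segments were sparse. Trgj4 had 2, 27 and 20 counts and was called in both comparisons (edgeR adjusted p = 0.000348 and 0.00248). These p values are only a description, since Trgj4 had few counts in controls and passed the lowered filter through the interferon tumors. Trgj1 had 0, 7 and 10 counts and Trgj2 had 5, 7 and 9. Tcrg-V5 took 46.7% of the Tcrg-V counts in B16-GFP, 34.1% in B16-IFNA4 and 34.5% in B16-IFNA9 tumors, and the ranges over tumors, 0 to 85.7, 14.5 to 55.0 and 19.2 to 58.8%, overlapped widely.

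**Figure D5:**
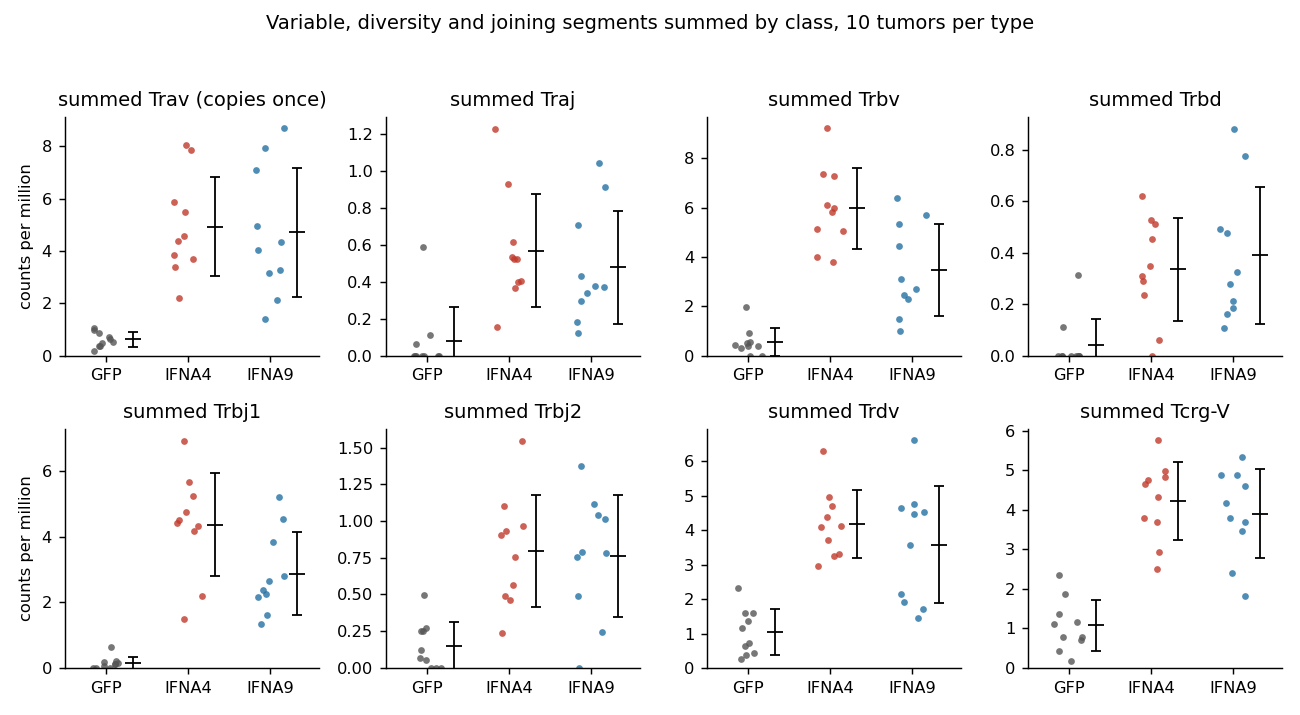
Summed CPM of 8 classes of variable, diversity and joining segments (vertical axis of each panel, starting at 0, each on its own scale) in each tumor (points), with the mean and SD as a bar to the right of the points, cut at 0. Trbj1 has no overlap between B16-GFP (at most 0.625) and the interferon tumors, and Trbv is lower in B16-IFNA9 (mean 3.48) than in B16-IFNA4 tumors (mean 5.97) with overlap.

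Summed by locus with the constant genes included, the alpha segments had the highest ratio to controls. All Tra members together, copies included, had 2.32 ± 0.975 CPM (SD, n = 10) in B16-GFP, 18.1 ± 6.02 in B16-IFNA4 and 16.2 ± 7.97 in B16-IFNA9 tumors, 7.80 and 6.98 times the control mean. The Trb sum was 5.22 and 3.50 times that of controls, the Trd sum 4.18 and 3.05 times and the Tcrg sum 3.58 and 2.83 times. In B16-IFNA4 tumors none of the 4 sums overlapped the controls, and in B16-IFNA9 tumors only the Tra sum did not. All 217 members together had 29.8 ± 9.84, 140.1 ± 28.7 and 103.4 ± 29.1 CPM. The constant genes took a median of 87.2% of the members' counts in B16-GFP, 81.5% in B16-IFNA4 and 79.8% in B16-IFNA9 tumors. Without the constant genes the remaining V, D and J segments were 7.00 and 5.63 times the control mean, and the constant genes alone 4.36 and 3.15 times. The order of the loci turned without the constant genes, where the log2 ratios were 3.68 and 3.07 for Trb and 3.09 and 3.00 for Tra.

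Between the interferon types, 1 of the 11 members with a mean of at least 10 counts differed. Trbc1 was lower in B16-IFNA9 than in B16-IFNA4 tumors by a log2 fold change of -0.63 ± 0.19 (edgeR adjusted p = 0.0204), where 7.25% of all genes tested were called lower and 10.5% higher. The tumors overlapped, with 7.44 to 23.1 CPM against 16.8 to 31.5 CPM. For Trbc2 the value was -0.52 ± 0.20 (edgeR adjusted p = 0.0683), for Tcrg-C4 -0.72 ± 0.28 (adjusted p = 0.075) and for Trdc -0.50 ± 0.22 (adjusted p = 0.119). With only the 20 tumors of these types in the fit, 4 members were called, adding Trbc2 (edgeR adjusted p = 0.0117), Tcrg-C4 (adjusted p = 0.0205) and Trdc (adjusted p = 0.0217), and without control tumor 7 there were 3 calls, Trbc1, Trbc2 and Trdc. The share of all genes called in these alternative fits is not given here. Trac differed by -0.21 ± 0.26 (edgeR adjusted p = 0.642), Trgv2 by 0.16 and Tcrg-V5 by -0.08 on the log2 scale.

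Of the 72 members with a mean of at least 1 count, 1 was called between the interferon types, Trbc1 again, where 5.14% of genes were called lower. Of these 72, 46 had a negative and 26 a positive log2 fold change. Without a filter 3 of 217 were called, where 8.2% of all genes were called in either direction. Besides Trbc1 these were Trav9-1, with 0 counts in B16-IFNA9 against 10 in B16-IFNA4 tumors, and Trav7-5, with 9 against 0. Both totals are small. By class, the Trb sum in B16-IFNA9 tumors was 0.670 times that in B16-IFNA4 tumors, and 6 of 10 B16-IFNA9 tumors lay below every B16-IFNA4 tumor. The Tra sum was 0.894 times, with overlap of most tumors, the Trd sum 0.730 times and the Tcrg sum 0.791 times. The Trbv sum was 0.583 times and the Trbj1 sum 0.659 times, whereas Trbj2 (0.954 times) and Trav with copies once (0.954 times) were close to 1.

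The balance of the constant genes within each tumor is described here without a test. Trbc1 made up a median of 37.1% of the Trbc1 and Trbc2 counts in B16-GFP (range 28.2 to 45.1), 47.0% in B16-IFNA4 (36.5 to 48.6) and 43.0% in B16-IFNA9 tumors (36.6 to 49.6). All types overlapped. The ratio of Trdc to Trac per kilobase had medians of 0.714 (range 0.282 to 2.31), 0.528 (0.357 to 0.787) and 0.387 (0.191 to 0.956), with overlap. Tcrg-C1 over Trac per kilobase had medians of 2.96, 1.45 and 0.996, with overlap. Tcrg-C4 over Tcrg-C1 per kilobase was 0.0354 to 0.273 in B16-GFP (median 0.151), 0.225 to 0.317 in B16-IFNA4 (0.286) and 0.138 to 0.414 in B16-IFNA9 tumors (0.182), with 6 of 10 B16-IFNA4 tumors above every control and 8 of 10 B16-IFNA9 tumors below every B16-IFNA4 tumor.

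The counts of V segments were also set beside those of the constant genes, as raw counts that do not allow for the unequal lengths of these genes. Trbv segments had a median of 4.78 counts per 100 Trbc counts in B16-GFP (range 0 to 11.9), 11.3 in B16-IFNA4 (8.33 to 16) and 7.44 in B16-IFNA9 tumors (4.94 to 21.1). For the alpha chain, Trav counts with copies once had medians of 47.9, 43.0 and 52.7 per 100 Trac counts. Trdv segments had medians of 17.2, 17.6 and 20.6 per 100 Trdc counts, and Tcrg-V segments 13.8, 15.1 and 17.7 per 100 Tcrg-C counts. For each of the 4 chains the ranges overlapped between all types.

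Most genes that form and signal with the receptor rose along with the segments. A list of 14 such genes held 13 in the table, of which 10 passed the filter, and 10 of 10 were called higher in B16-IFNA4 (median log2 fold change 2.72) and 9 of 10 in B16-IFNA9 tumors (median 2.28), beside 0.01 and 0.00 over all genes. Of all genes tested, 31.3% and 26.9% were called higher. Cd3e, a signalling chain of the receptor complex, rose by 2.11 ± 0.23 (edgeR adjusted p = 3.6e-09) and 1.98 ± 0.23 (adjusted p = 2.66e-08). Cd3d rose by 2.94 and 2.39 on the log2 scale, Cd3g by 2.40 and 1.99, Cd247 by 2.67 and 2.30, the kinases Lck by 2.77 and 2.27 and Zap70 by 2.94 and 2.29, and the adaptor Lat by 2.36 and 1.91. The coreceptor genes Cd8a (3.36 and 2.99) and Cd8b1 (3.33 and 3.04) rose in both types. Cd4 rose in B16-IFNA4 tumors (1.48 ± 0.48, edgeR adjusted p = 0.00834), with 0.66 ± 0.48 in B16-IFNA9 tumors (adjusted p = 0.243). B16-GFP tumor 8 held 822 of the 1263 control counts of Cd4 (46.4 CPM, beside a control median of 2.92). Without that tumor, left out after its value was seen, the log2 changes of Cd4 were 2.80 ± 0.28 (edgeR adjusted p = 1.17e-09) and 1.98 ± 0.27 (adjusted p = 9.35e-07). None of the 10 was called between the interferon types, where 7.25% of all genes tested were called lower and 10.5% higher. The other 3 genes of the list had too few counts for this filter. Ptcra, the pre-T alpha chain of developing T cells, had 88, 13 and 12 counts, and in the fit with a mean of at least 1 count it fell in both types, with log2 changes of -2.80 ± 0.55 (edgeR adjusted p = 8.05e-05) and -2.87 ± 0.56 (adjusted p = 0.000104). The recombinase genes had 8, 11 and 10 counts (Rag1) and 0, 0 and 2 (Rag2), and in the fit with no filter neither was called (edgeR adjusted p of at least 0.201).

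Most T cell markers and all tested NK cell markers rose with the segments, and some other lists did so in part or not at all. The summed level of 10 T cell markers ran from 7.94 to 67.4 CPM in B16-GFP, 101.0 to 229.6 in B16-IFNA4 and 47.1 to 154.0 in B16-IFNA9 tumors. Of these markers 10 and 9 were called higher, beside 31.3% and 26.9% of all genes tested. For 7 NK cell markers the sums ran from 5.17 to 31.7, from 121.0 to 369.2 and from 74.9 to 242.7 CPM, and 7 of 7 were called higher in both types, beside the same shares. Lower in B16-IFNA9 than in B16-IFNA4 tumors were 3 of the 7, beside 7.25% of all genes tested. Of the other lists, 1 of 10 T cell markers (Cd28, a costimulatory receptor) and 1 of 4 tested genes of the ILC2 list, for type 2 innate lymphoid cells (Il1rl1, the IL-33 receptor) were also called lower in B16-IFNA9 than in B16-IFNA4 tumors. The cytokine genes of that list, below the filter, had 7, 27 and 44 counts (Il5) and 12, 18 and 46 (Il13), and were not called between the interferon types in the fit with a mean of at least 1 count (edgeR adjusted p = 0.511 and 0.235). Against B16-GFP tumors that fit called both higher in B16-IFNA9 tumors (2.34 ± 0.74, edgeR adjusted p = 0.0103, and 1.76 ± 0.73, adjusted p = 0.0478) and neither in B16-IFNA4 tumors (adjusted p = 0.0756 and 0.643), and with no filter Il13 was not called (adjusted p = 0.061). The NK receptor gene Klre1 rose by 4.43 and 3.81 on the log2 scale. Per 100 Klre1 counts, Trbc1 had medians of 555 in B16-GFP, 118 in B16-IFNA4 and 113 in B16-IFNA9 tumors, and neither interferon type overlapped the controls. Trbc2 per Klre1 did not overlap either. Trac overlapped the controls in B16-IFNA9 tumors, and Trdc, Tcrg-C1 and Trdv4 in both types. Klre1 had 160 counts over all control tumors and 2 in the lowest, so the control ratios rest on few counts. The part of NK cell transcripts, or of other unrearranged transcripts, in the counts of Trbc1, Trdc and the D and J segments was not tested.

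Ptprc, the gene of the leukocyte antigen CD45, rose by 2.65 ± 0.23 (edgeR adjusted p = 6.21e-11) and 2.14 ± 0.23 (adjusted p = 8.18e-09). Per 100 Ptprc counts, Trac had medians of 1.85, 2.25 and 2.69 in the 3 types, and Tcrg-C1 had 6.21, 2.68 and 3.24. Trbc2 had 9.47, 5.60 and 5.51 per 100 Ptprc counts, and the ranges of all of these overlapped. For Tcrg-C1, however, 9 of 10 B16-IFNA4 and 7 of 10 B16-IFNA9 tumors lay below every control tumor, and for Trbc2 5 of 10 of each type did. Of the ILC2 list 3 of 4 tested genes were called higher in both types, beside 31.3% and 26.9% of all genes tested. Its summed level ran from 81.2 to 283.4 CPM in B16-GFP, 338.8 to 542.7 in B16-IFNA4 and 203.3 to 318.1 in B16-IFNA9 tumors. The summed level of 4 B cell markers ran from 0.568 to 3.84 CPM over all tumors, with 22, 115 and 45 counts for Ms4a1 and 89, 57 and 54 for Cd79a. Only Cd79b passed the filter, and it was not called (edgeR adjusted p = 0.31 and 0.581). Of a list of 4 melanocyte markers, 1 was found in the table by its symbol, Tyr, which fell by 1.24 and 0.97 on the log2 scale.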

How the data were processed

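RNA of whole tumors was made into stranded libraries and read from 1 end for 50 bases. Per the submitters' processing notes and methods, FastQC 0.11.3, HISAT2 2.0.4 and summarizeOverlaps were used. The authors deposited raw counts, without normalization. The notes name mm10 and the paper another build name. The annotation release, overlap mode, strand setting and handling of reads with several alignments are not given in the sources used here, so near-identical, overlapping and antisense genes are uncertain. Listed genes without a row were not analysed here.

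Identifiers were matched to GENCODE M21 (GRCm38), with 39495 found and 181 not. The 15926 genes that averaged 10 or more counts per tumor were fitted together in edgeR 4.0.16 (R 4.3.3) with TMM scaling, 1 quasi-likelihood model of 30 tumors, and Benjamini-Hochberg adjustment over all genes tested, with calls at an adjusted p under 0.05. Fits with a mean of at least 1 count or no filter served the sparse members. Segment shares were compared by two-sided permutation (100000 resamples, or exact), for tumors with at least 10 Trbv counts. Intervals are exact 95% binomial. A total of 0 was set against 3 counts over the 10 tumors of a type. Described segments were all constant genes, the 3 with the highest mean count of Trav, Traj, Trbv, Trbj, Trdv, Tcrg-V and Tcrg-J, called segments, the leading Trbv of each tumor and segments of receptors with a fixed chain. Trbd1, Trbd2, Trbj2-1, Trbj2-2, Trbj2-3, Trbj2-7 and Trav16n were added after their values were seen. Members and lists were chosen with earlier results of these data known. Alternatives were DESeq2 1.42.0, its size factors, library totals, other filters and fewer tumors.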

Additional observations from a re-analysis of the deposited data

Results flagged for a closer look

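In 45 groups of 10 tumors (15 levels in 3 tumor types), 6 had a lowest or highest tumor whose gap to the next was large for the range of the group, where chance gives about 1 in 20. Of these, 3 lay in B16-GFP tumor 7, which was the lowest control for Trbc2 (1.12 on the log2 CPM scale), for Tcrg-V5 (-3.1) and for the summed Trb segments (1.85). Another 2 lay in B16-IFNA9 tumor 10, the lowest of its type for Trbc2 (2.94) and the summed Trb segments (4.27). The last was B16-IFNA9 tumor 7, the highest of its type for Tcrg-V5 (1.34). All members together had 106 counts in B16-GFP tumor 7, where the other control tumors had 386 to 811, and 778 in B16-IFNA9 tumor 10, where the others had 1397 to 2290.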

How the results depend on the processing

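Against B16-GFP, 11 of 11 members stayed called in both interferon types with DESeq2, its size factors, library totals, filterByExpr, only the 20 tumors compared, and with each tumor left out in turn (11 to 11). Lower filters test more members and gave 64 (B16-IFNA4) and 59 (B16-IFNA9) calls of 72 with a mean of at least 1 count, and 118 and 97 of 217 with no filter. Between the interferon types the 1 call became 3 with no filter, 4 with only the 20 tumors, 3 with DESeq2, and 1 to 3 with a tumor left out, where it was 2 without B16-GFP tumor 5, 3 without B16-GFP tumor 7 and 2 without B16-IFNA9 tumor 2. The share of all genes called in the fits with DESeq2 or fewer tumors is not given here, and the cause was not tested. Tcrg-V5, called in neither case, changed sign between the interferon types without B16-IFNA4 tumor 2 (0.00835) or tumor 3 (0.0543), with a range of -0.217 to 0.0543 over the tumors left out. Without constant genes the log2 ratio of the Trb sum moved from 2.38 to 3.68 (B16-IFNA4) and from 1.81 to 3.07 (B16-IFNA9), since these genes hold most of its counts. Without B16-GFP tumor 7 these ratios with constant genes were 2.27 and 1.70.

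The share of the Trbv13 segments against B16-GFP tumors passed the unadjusted threshold when all tumors with 1 Trbv count were used, with -10.8 points (permutation p = 0.0494) for B16-IFNA4 and -15.1 points (permutation p = 0.0128) for B16-IFNA9, and then rests on control tumors with few counts. Without B16-GFP tumor 2, 1 control tumor was left and the differences were -10.3 and -14.6 points, and without B16-GFP tumor 5 they were -0.825 and -5.09. With 1 control tumor the smallest p that an exact permutation test allows is 0.182, so no test could pass. With those included, left-out tumors gave -10.3 to -0.825 and -14.6 to -5.09 points, and -5.73 to -2.63 between the interferon types. A minimum of 30 Trbv counts also left 1 control tumor. Same-numbered tumors did not deviate together (4 of 30 pairs over 0.1, median correlation -0.054), so the numbers do not pair them. A replicate block left 11, 11 and 1 calls, and with 2 pairs turned the Trbv13 difference of B16-IFNA4 to 0.712, where the smallest exact p is 0.5. With tumors left out, the log2 ratios ranged from 2.87 to 3.07 and 2.68 to 2.91 for the Tra sum, 2.27 to 2.48 and 1.70 to 1.91 for Trb, 1.95 to 2.21 and 1.50 to 1.76 for Trd, and 1.74 to 1.95 and 1.40 to 1.61 for Tcrg, against B16-GFP. Depth limits most V, D and J segments, which had under 1 count per tumor on average.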
